A study of Arabidopsis thaliana with 12 samples.

Results

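In both genotypes of this Arabidopsis seed series, 55 probe sets stayed flat between 14 and 16 days after flowering and then stood at least 5.66-fold higher in the dry seed. They were chosen by measured values: the mean log2 signal of the dry seed exceeded that at 16 days by 2.5 or more, and the means at 14 and 16 days differed by under 0.5, in each genotype. The 55 were drawn from 22746 probe sets, after 64 array controls were set aside. Taken by itself, WT had 131 probe sets that met both conditions, and KD had 141. Of the 55, 31 name 1 gene each in the platform annotation and 24 have no gene listed. The rise itself therefore chose the members, and its values below are a description without a test.

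Seeds of the ecotype Wassilewskija (WS) were collected from 2 genotypes, named WT and KD, at 14 days after flowering (14DAF), at 16DAF and as dry seed, with 2 Affymetrix ATH1 arrays for each of the 6 groups. The plants were grown in a greenhouse under long days without any treatment, the developing seeds were excised from siliques of marked flowers, and the dry seed was harvested after desiccation. Each extraction used 3000 to 5000 seeds, so every value is a pool of many seeds, and the RNA was amplified by the 2-cycle labelling. No source used here says that the 2 repeats of a group came from separate plants, so the p-values measure only the spread between arrays, which may be technical. The labels call KD a mutant and the series title speaks of altered lysine metabolism, but KD is not spelled out. Earlier work by Zhu and Galili, which the series cites for both genotypes, brought together in Arabidopsis a knockout of LKR/SDH, which starts lysine breakdown, and a bacterial lysine synthesis enzyme expressed in seeds. Which of these changes KD carries, and whether it is 1 line or several, is not given.

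A seed first fills with reserves and then dries. During late maturation it loses most of its water, and transcripts for protective proteins, such as the late embryogenesis abundant (LEA) proteins and small heat shock proteins, accumulate under abscisic acid and a few seed transcription factors. The dry seed holds a large store of messenger RNA, part of which is used when germination starts after water is taken up.  In whole seeds, fewer cells of one type and less RNA in each cell cannot be told apart.

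The deposited log2 values had array medians between 5.08 and 5.28 in developing seeds and between 4.91 and 4.97 in dry seeds, and the 2 arrays of a group correlated at r = 0.983 to 0.993. The mean 3′ minus 5′ log2 signal of 3 Arabidopsis control transcripts (actin, GAPDH and ubiquitin) is a measure of RNA integrity and labelling. It ranged from 3.39 to 4.25 in developing seeds and from 3.26 to 3.47 in dry seeds. The ranges overlapped only through replicate 1 of KD at 16DAF (3.39). In WT both dry arrays (3.26 and 3.447) lay below every developing array (lowest 3.553). GAPDH alone read 2.05 and 2.35 in dry WT and 3.3 to 4.26 in developing WT, while actin and ubiquitin overlapped between these stages. LKR/SDH read 8.87 to 10.61 in the WT arrays and 12.8 to 13.88 in the KD arrays, with no overlap, and where its probes lie relative to any change in KD is not given. The source name gave another genotype than the title for 2 arrays, replicate 1 of WT at 16DAF and replicate 1 of dry KD seeds, and both lay with their titles on LKR/SDH. Without these 2 arrays 34 probe sets met the rule, 31 of them among the 55.

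Tissue markers moved too. Of 3 seed coat genes measured, BAN, DFR and DELTA-VPE, the last 2 fell on drying in both genotypes (DFR by 1.96 in WT and 1.91 in KD on the log2 scale). The oil body gene OLEO3, a marker of filled seeds, had a mean log2 level of 13.2 at 16DAF and 10.8 in dry seeds of WT. No marker of 4 endosperm and 6 silique wall genes looked up had a probe set naming it alone. The part of tissue shares or RNA integrity in the members' rise was not tested.

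Across all 55 members the rise from 16DAF to dry ranged from 2.5 to 6.225 on the log2 scale in WT (median 3.36) and from 2.5 to 6.33 in KD (median 3.41). The rule fixed the direction. In all 55 every dry array of either genotype read above every developing array of both. These are the values the rule used, so this order is no added support. The distance from the highest developing array to the lowest dry array was 1.78 to 5.82 in WT and 1.9 to 5.88 in KD. The rise was larger in WT for 25 members, the same in both genotypes for UGT85A5 and larger in KD for the rest, and for 50 of 55 the genotypes' rises lay within 1 log2 unit of each other.

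Signals in the developing seeds were low for some members. The members' median group mean there was 4.795 to 5.01, a little below the array medians of 5.08 to 5.28, and the lowest was 3.07. In all 8 developing arrays 22 of the 55 members read below the array median, so the fold of the rise is uncertain for these. The median splits all probe sets evenly in each array, but the share of all probe sets below it in all 8 was not counted. This count therefore does not set the members apart. In the dry seed all 55 read above the array median in all 4 arrays, which the rise required by the rule largely forced. Above the upper quartile in all 4 read 41. The required rise favoured this too, and the share over all probe sets was not counted. The median SD over the 2 arrays of a group was larger for the members than for all probe sets, with a value of 0.269 in WT at 16DAF against 0.163, and 0.219 against 0.12 in dry KD seeds.

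**Figure D1:**
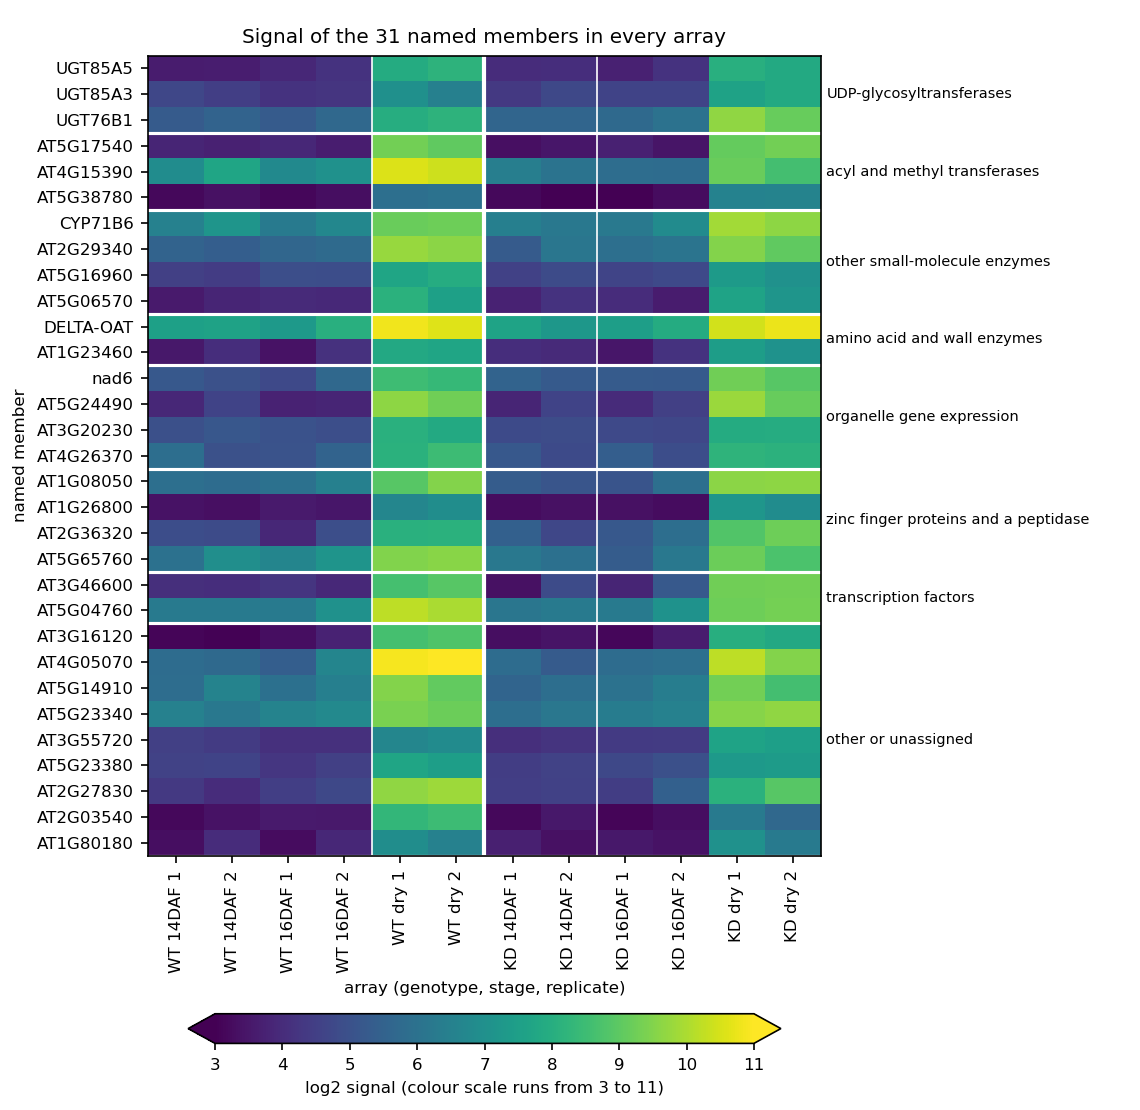
Log2 signal of the 31 named members (rows, grouped by role) on each of the 12 arrays (columns, by genotype, stage and replicate), with colour from low to high signal. The 4 dry columns stand above the 8 developing columns in every row.

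The 55 were a minority of the transcripts with a rise of this size. A rise of at least 2.5 in both genotypes was met by 196 probe sets, of which 81 had a mean higher by 0.5 or more at 16DAF than at 14DAF in both genotypes, 7 had one lower by that much in both, 55 were flat in both and 53 showed other patterns. Just inside the limit on the rise lay AT5G23380 (smaller of its rises 2.5), AT5G16960 (2.51) and UGT85A3 (2.555 in WT). Just outside lay CYTC6A and AT1G27290 (2.485 each) and AT5G24890 (2.475). The named members' change from 14DAF to 16DAF, fixed by the rule, stayed within 0.5 in either direction.

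**Figure D2:**
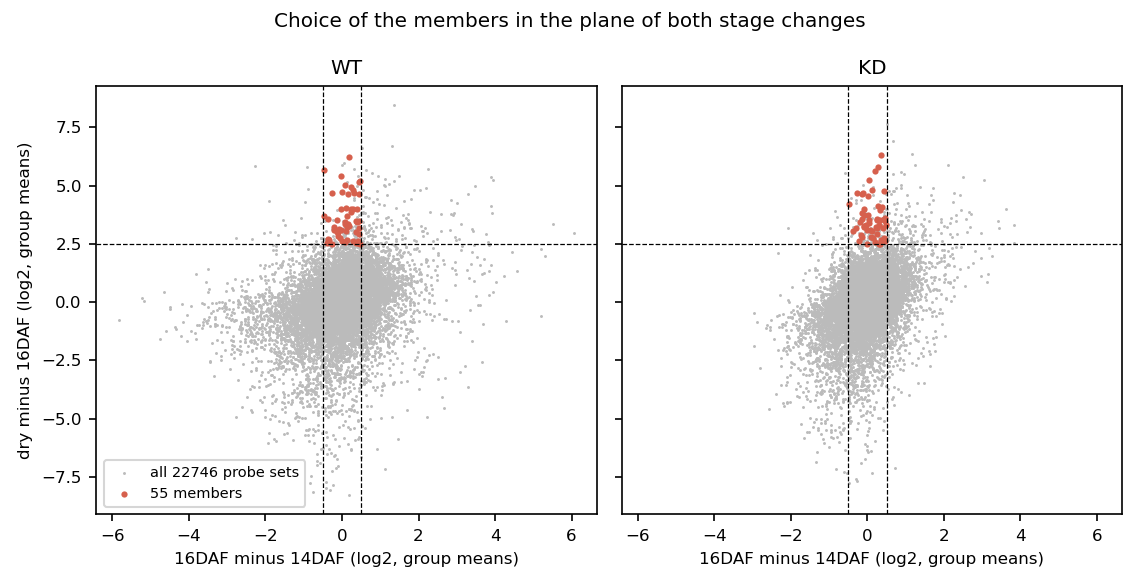
Change from 14DAF to 16DAF (x axis, log2) against change from 16DAF to dry seed (y axis, log2) for the probe sets of WT (left) and KD (right), with the members marked and the limits of 0.5 and 2.5 drawn as lines. The members lie in the narrow upper strip, which holds 131 probe sets in WT and 141 in KD, members included. Other probe sets with a rise above 2.5 lie to either side of the strip, 81 of them to its right in both genotypes.

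Sugar-transferring enzymes formed one group among the named members. UDP-glycosyltransferases (UGTs) attach a sugar from a nucleotide donor to hormones, defence compounds and other small molecules, which changes their solubility, storage and activity. The members were UGT85A5, UGT85A3 and UGT76B1, and UGT85A5 and UGT85A3 are direct neighbours in the genome annotation. All array values are given below as log2 signals, replicate 1 before replicate 2. Genotypes with 2 arrays each often fail to overlap without any true difference, and how often all probe sets did so was not counted. Where the genotypes are set apart below, the limma test described further on decides whether they differed.

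UGT85A5 read 3.62 and 3.64 in WT at 14DAF, 3.89 and 4.17 at 16DAF, and 7.91 and 8.18 in dry seeds. In KD, UGT85A5 read 4.01 and 4.06, then 3.72 and 4.17, then 8.05 and 7.87. The rise was 16.2-fold in both genotypes, and the dry arrays of the genotypes overlapped. Its neighbour UGT85A3 read 4.71 and 4.49, 4.17 and 4.24, and 7.03 and 6.49 in the same order in WT. KD arrays of UGT85A3 read 4.33 and 4.74, 4.62 and 4.61, and 7.6 and 7.86. The genotypes overlapped at 14DAF, and at 16DAF and in dry seeds both KD arrays stood above both WT arrays. At 16DAF the difference did not pass the limma test (adjusted p 0.25).

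UGT76B1, which glucosylates isoleucic acid, salicylic acid and N-hydroxypipecolic acid and thereby dampens defence signalling, read 5.3 and 5.56, 5.31 and 5.69, and 7.99 and 8.17 in WT. In KD the UGT76B1 values were 5.6 and 5.61, 5.72 and 6.01, and 9.68 and 9.14. Here the rise was 5.98-fold in WT and 11.7-fold in KD.

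Enzymes that add acyl or methyl groups to small molecules made up a second set. AT5G17540 and AT4G15390 belong to the BAHD family, which moves acyl groups from coenzyme A to alcohols and amines, and AT5G38780 belongs to the family of methyltransferases that methylate salicylic acid, jasmonic acid and related acids. AT5G17540 read 3.84 and 3.72 in WT at 14DAF, 3.88 and 3.65 at 16DAF, and 9.3 and 9.05 in dry seeds. KD arrays of AT5G17540 read 3.32 and 3.48, 3.72 and 3.45, and 9.11 and 9.29. This was the largest rise of any named member in KD, 49-fold, against 42.5-fold in WT, from a developing signal near the bottom of the scale.

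AT4G15390 was already readable before drying, at 6.9 and 7.69 in WT at 14DAF, 6.8 and 7.06 at 16DAF, and 10.57 and 10.4 in dry seeds. The AT4G15390 arrays of KD read 6.42 and 6.05, 5.87 and 5.83, and 9.17 and 8.62. At each of the 3 stages both KD arrays lay below both WT arrays. AT5G38780 read 3.18 and 3.35, 3.15 and 3.3, and 5.92 and 6 in WT. In KD, AT5G38780 read 3.18 and 3.03, 3.03 and 3.28, and 6.55 and 6.57, so the KD dry arrays stood above the WT dry arrays.

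Other enzymes of small molecules were the short-chain dehydrogenase AT2G29340 of the tropinone reductase-like family, the cytochrome P450 CYP71B6, the α/β-hydrolase AT5G06570 and the zinc-binding dehydrogenase AT5G16960. AT2G29340 read 5.54 and 5.38, 5.63 and 5.78, and 9.77 and 9.6 in WT. In KD, AT2G29340 read 5.29 and 6.13, 5.91 and 6.09, and 9.53 and 9.06. The rise was 15.8-fold in WT and 9.82-fold in KD. Every KD dry array lay below every WT dry array, but the difference did not pass the limma test (adjusted p 0.462).

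AT5G06570 read 3.58 and 3.83, 3.96 and 3.92, and 8.1 and 7.54 in WT. KD arrays of AT5G06570 read 3.78 and 4.17, 4.03 and 3.62, and 7.63 and 7.17. The genotypes overlapped at all 3 stages. AT5G16960 read 4.5 and 4.41, 4.91 and 4.88, and 7.7 and 7.95 in WT. For AT5G16960 in KD the arrays read 4.55 and 4.84, 4.63 and 4.76, and 7.35 and 7.06. CYP71B6, which acts on indole-3-acetonitrile, went from a mean of 6.50 at 16DAF to 9.2 in dry WT seeds and from 6.55 to 9.77 in KD.

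A pair of members act in amino acid and cell wall metabolism. DELTA-OAT, the mitochondrial ornithine aminotransferase that links arginine breakdown to glutamate and proline, rose 8.22-fold in WT and 7.49-fold in KD. Its arrays read 7.32 and 8.04 at 16DAF and 10.84 and 10.6 in dry WT seeds, and in KD 7.49 and 7.92 followed by 10.45 and 10.77. AT1G23460, a pectin lyase-like protein of the polygalacturonase family, which cuts wall pectin, read 3.52 and 4.06, 3.4 and 4.14, and 7.84 and 7.71 in WT. In KD, AT1G23460 read 4.04 and 3.96, 3.47 and 4.16, and 7.46 and 7.08. Both genotypes thus started from a similar low signal, and the KD dry arrays lay below the WT dry arrays without passing the limma test (adjusted p 0.398). Its probe set carries the suffix of sets shared by related sequences, so part of the signal may come from a relative.

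Organelle genes were represented by AT5G24490 and AT3G20230, which encode proteins of the ribosomal protein families, the transcription antitermination factor AT4G26370 of the NusB family, and nad6, a subunit of respiratory complex I that is encoded in the mitochondrion itself. AT5G24490 read 3.89 and 4.62, 3.77 and 3.82, and 9.63 and 9.28 in WT. Arrays of AT5G24490 in KD read 3.82 and 4.61, 3.97 and 4.52, and 9.8 and 9.13. This was the largest rise of any named member in WT, 50.6-fold, against 37.3-fold in KD, and the dry arrays of the genotypes overlapped.

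The mitochondrial nad6 read 4.77 and 5.69 at 16DAF and 8.51 and 8.36 in dry seeds of WT, and 5.31 and 5.25 followed by 9.26 and 8.93 in KD. Its rise was 9.22-fold in WT and 14.1-fold in KD. Plant mitochondrial transcripts generally lack long poly(A) tails, and this probe set too is of the shared kind. AT3G20230 rose 8.08-fold and 9.22-fold in WT and KD, and AT4G26370 rose 7.94-fold and 8.22-fold.

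Zinc finger proteins and a peptidase came next. AT2G36320 has A20 and AN1 zinc fingers, a domain pair found in stress-associated proteins. The arrays of AT2G36320 read 4.89 and 4.84, 3.88 and 4.91, and 8.08 and 8.11 in WT. In KD, AT2G36320 read 5.46 and 4.71, 5.2 and 5.88, and 8.82 and 9.24. The 16DAF arrays were spread widely in WT. In dry seeds both KD arrays stood above both WT arrays, without passing the limma test (adjusted p 0.153).

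AT1G08050 and AT1G26800 carry RING fingers, the domain of many ubiquitin ligases. AT1G08050 rose 7.97-fold in WT and 17.5-fold in KD, and AT1G26800 rose 9.65-fold and 13.3-fold. AT5G65760 encodes a serine carboxypeptidase of family S28. WT arrays of AT5G65760 read 5.98 and 6.95, 6.63 and 7.14, and 9.47 and 9.58. In KD, AT5G65760 read 6.2 and 5.96, 5.34 and 6.2, and 9.21 and 8.72. Both KD arrays lay below both WT arrays at 16DAF and in dry seeds. Neither difference passed the limma test (adjusted p 0.0706 at 16DAF and 0.446 in dry seeds).

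Only 2 named members encode transcription factor family proteins. AT3G46600, a GRAS family protein, read 4.09 and 4.04, 4.23 and 3.92, and 8.65 and 8.91 in WT. KD arrays of AT3G46600 read 3.36 and 4.83, 3.83 and 5.23, and 9.27 and 9.29. Its rise was 26.1-fold in WT and 26.9-fold in KD, although the developing KD arrays lay over 1 log2 unit apart. AT5G04760, a MYB-related protein, rose 10.8-fold in WT and 6.08-fold in KD.

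The remaining 9 named members have other or undefined functions, and some showed large rises. AT3G16120, of the dynein light chain family, read 3.1 and 3.04, 3.31 and 3.75, and 8.65 and 8.8 in WT. In KD, AT3G16120 read 3.3 and 3.41, 3.14 and 3.6, and 8.02 and 7.84. The rise was 36.6-fold in WT and 23.6-fold in KD, and both KD dry arrays lay below both WT dry arrays. AT4G05070, of the wound-responsive family, read 5.82 and 5.73, 5.38 and 6.65, and 10.9 and 11.01 in WT. KD arrays of AT4G05070 read 5.82 and 5.29, 5.84 and 5.93, and 10.19 and 9.51. The WT dry arrays again stood above the KD dry arrays, here without passing the limma test (adjusted p 0.0983).

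AT2G27830 read 4.32 and 4.01, 4.48 and 4.72, and 9.66 and 9.84 in WT. In KD, AT2G27830 read 4.48 and 4.55, 4.45 and 5.45, and 8.11 and 8.92. AT2G03540 showed the widest distance between the genotypes in dry seeds of all named members. WT arrays of AT2G03540 read 3.16 and 3.39, 3.57 and 3.56, and 8.29 and 8.49, while the KD arrays read 3.18 and 3.51, 3.1 and 3.3, and 6.27 and 5.71. Its rise was 28.3-fold in WT and 6.92-fold in KD.

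AT3G55720, which has a domain of unknown function, moved the other way. In WT it read 4.51 and 4.38, 4.12 and 4.11, and 6.67 and 6.87. KD arrays of AT3G55720 read 4.09 and 4.19, 4.37 and 4.4, and 7.63 and 7.51. The other 4 of these members were AT1G80180, AT5G14910 (a heavy-metal-associated domain), AT5G23340 (leucine-rich repeats) and AT5G23380 (a domain of unknown function). They rose between 6.19-fold (AT5G23340) and 9.22-fold (AT5G23380) in WT and between 5.66-fold (AT5G23380) and 9.35-fold (AT1G80180) in KD. AT5G23340 and AT5G23380 lie near each other, with 3 genes between them.

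The 24 members without a listed gene behaved like the named ones on the measures the rule used. Their rise ranged from 2.5 to 6.225 in WT (median 3.46) and from 2.505 to 6.33 in KD (median 3.52). One of them held the largest rise of all 55, with developing arrays between 3.4 and 4.21 and dry arrays between 9.99 and 10.47, or 74.8-fold in WT and 80.4-fold in KD. In dry seeds 20 of the 24 read above the upper quartile of all 4 arrays, which the required rise favoured.

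Pathways known for late maturation, dry-seed protection and the start of germination were then looked up among the members. Under limma with a Benjamini-Hochberg adjusted p threshold of 0.05 over all 22746 probe sets, 37.3% of probe sets changed from 16DAF to dry in WT (20.4% up and 16.9% down) and 34.9% in KD (19.6% up and 15.3% down). Upward calls made up 54.66% of all calls in WT and 56.11% in KD, and 70.5% and 69.99% when each array was centred on its median. The median change over all probe sets was 0.02 in WT and 0.03 in KD. The member genes' own changes chose them, so the counts below concern the other genes of each list.

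None of the 35 LEA genes with a probe set naming them alone was a member. The other 16 LEA genes looked up have none, and whether any of them is among the 24 members without a listed gene is not known here, which holds for the lists below too. Of the 35, 16 rose and 4 fell on drying in WT and 19 rose and 3 fell in KD, with a median change of 0.34 and 0.845. For 6 of them the rise was at least 2.5 in both genotypes, and in all 6 the mean difference between 16DAF and 14DAF was 0.5 or more in both, past the limit of the rule. That earlier difference passed the limma test in both genotypes for AT2G23110, AT3G22490 and AT4G36600. It did not pass in KD for LEA18 (1.16, adjusted p 0.0778) and M10 (3.06, adjusted p 0.106), nor in either genotype for M17 (1.365 in WT, adjusted p 0.487, and 0.51 in KD, adjusted p 0.854). The small heat shock and related chaperone genes were similar: none of 7 measured was a member, 6 rose and 1 fell in WT, 5 rose and none fell in KD (median change 2.385 and 2.105), and 3 had a rise of at least 2.5 in both genotypes. These 3, AT1G54050, AT1G53540 and AT2G29500, rose from 14DAF to 16DAF in WT (by 3.77, 2.2 and 1.32), while in KD the differences of 0.555, 0.695 and 0.82 did not pass the test (adjusted p 0.615, 0.378 and 0.0969).

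Germination pathways were thinly covered. Among 4 measured genes of gibberellin synthesis and response, 3 rose in each genotype: the receptor gene GID1A by 3.36 in WT and 3.27 in KD, the receptor gene GID1C by 2.06 and 2.27, and SLY1, whose product removes the repressors of the response, by 0.72 and 1.36. GID1A also rose from 14DAF to 16DAF in both. Of 4 measured genes of oil mobilisation, 3 rose in WT and 4 in KD, among them the isocitrate lyase gene ICL of the glyoxylate cycle by 1.73 and 1.75 and the lipase gene SDP1 by 1.49 and 1.74. None of these measured genes was a member.

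The autophagy genes of the ATG8 family, all 9 of them measured, were not members either, with 2 up and 1 down in WT and 3 up and 1 down in KD. ATG8H rose by 1.82 in WT and 1.80 in KD, and ATG8D fell by 0.81 and 1.03. Without WT 16DAF replicate 2 the WT count of risers was 4. Of 40 genes of abscisic acid synthesis and signalling only EEL, a bZIP factor of the abscisic acid response, had a probe set that names it alone, and it fell by 2.17 in WT and 1.67 in KD. Of 12 antioxidant genes only GR1, a glutathione reductase, was measured, with a change of -0.39 in WT and -0.43 in KD. These pathways therefore remain largely unseen in the named part of the array.

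The families that hold members were looked up after the members were known. Of 47 measured UGT genes 3 were members, and of the other 44, 15 rose and 4 fell in WT (median change 0.21) and 18 rose and 4 fell in KD (median 0.302), with 14 up in both. A rise of at least 2.5 in both genotypes was shown by 4 of these: UGT76E12 (4.47 in WT and 5.58 in KD), UGT87A2 (3.60 and 2.96), UGT76E11 (3.17 and 3.13) and UGT73C7 (2.62 and 4.24), of which UGT76E12 and UGT87A2 had a mean at least 0.5 higher at 16DAF than at 14DAF in both. That difference passed the test for UGT87A2 and not for UGT76E12 (adjusted p 0.248 in WT and 0.193 in KD). UGT78D1, a flavonol rhamnosyltransferase, fell by 2.96 and 2.93. The family as a whole thus spread in both directions.

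Of the 15 other measured genes of the mitochondrial genome, 8 rose and 3 fell in WT (median change 0.555) and 8 rose and none fell in KD (median 0.76). One of them, the cytochrome oxidase subunit gene cox2, rose by 2.79 and 3, and 12 of the 15 were flat from 14DAF to 16DAF in both genotypes. In the tropinone reductase-like family 3 of the 10 other measured genes rose and none fell in each genotype, with AT2G29300 up by 3.74 in WT and 2.92 in KD and AT2G29310 by 3.28 and 1.82. Of the 5 other measured genes of the A20/AN1 family of AT2G36320, none rose and 2 fell in WT, and 1 rose and 1 fell in KD. Of the genes around DELTA-OAT in proline and ornithine metabolism, OTC changed by -0.07 in WT and -0.17 in KD, and the proline dehydrogenase gene AT5G38710 by -1.95 and -0.41. Of the 3 other measured genes in the GRAS subfamily of AT3G46600, AT5G59450 rose by 1.075 in WT and 1.825 in KD, AT2G37650 changed by -0.52 in WT (adjusted p 0.0639) and fell by 0.61 in KD (adjusted p 0.0351), and AT1G07520 changed by -0.515 and 0.165 without passing the test.

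**Figure D3:**
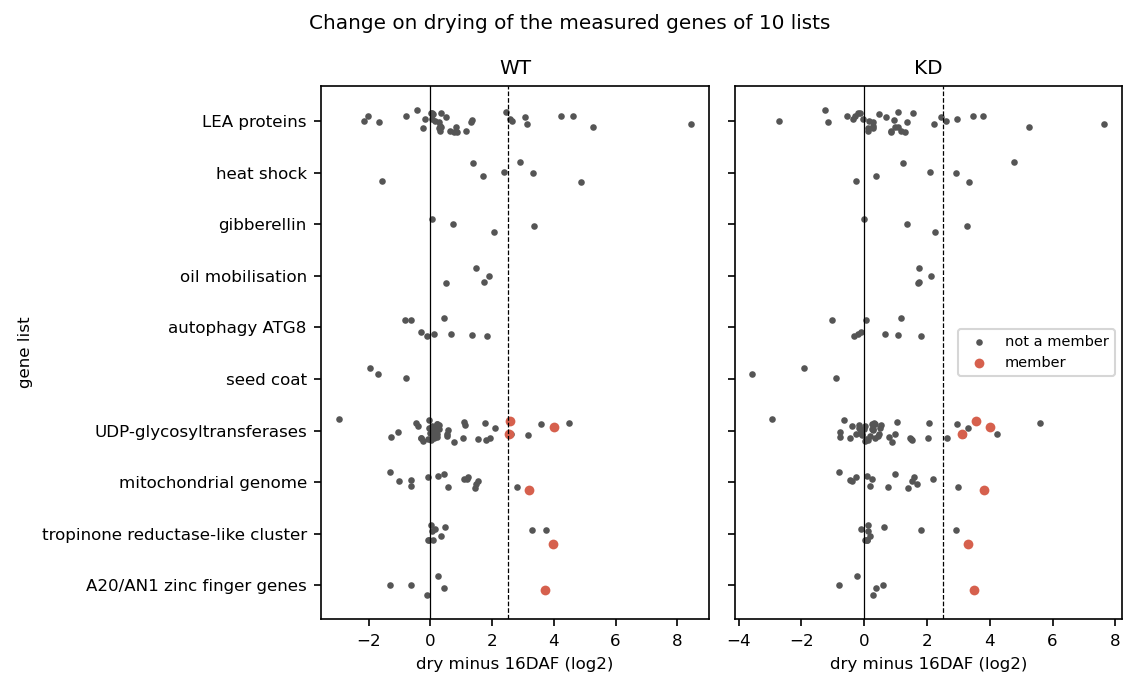
Change from 16DAF to dry seed (x axis, log2) of each measured gene in the pathway and family lists (rows) in WT (left) and KD (right), with members of the 55 marked apart from other genes. The LEA, heat shock and gibberellin rows hold no member, and the UGT row runs from UGT78D1 at -2.96 to UGT76E12 at 4.47 in WT.

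The rule did not use the difference between KD and WT itself, but it used the group means from which that difference is made. The shares of members called are therefore a description, and do not show that the genotype acted on the members as a set. KD was compared with WT at each stage and averaged over the stages, with limma over all probe sets and Benjamini-Hochberg adjustment, two-sided. In dry seeds 12 of the 55 members differed, 6 higher and 6 lower in KD. The share of 21.8% stands beside 7.91% over all probe sets (4.01% higher and 3.9% lower). Among the 10553 probe sets above the array median in all 4 dry arrays, which all 55 members are, it was 13.1% (6.77% higher and 6.35% lower). The median KD minus WT difference of the members in dry seeds was -0.06, against -0.015 over all probe sets, and the median size of the difference was 0.39 against 0.18.

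**Figure D4:**
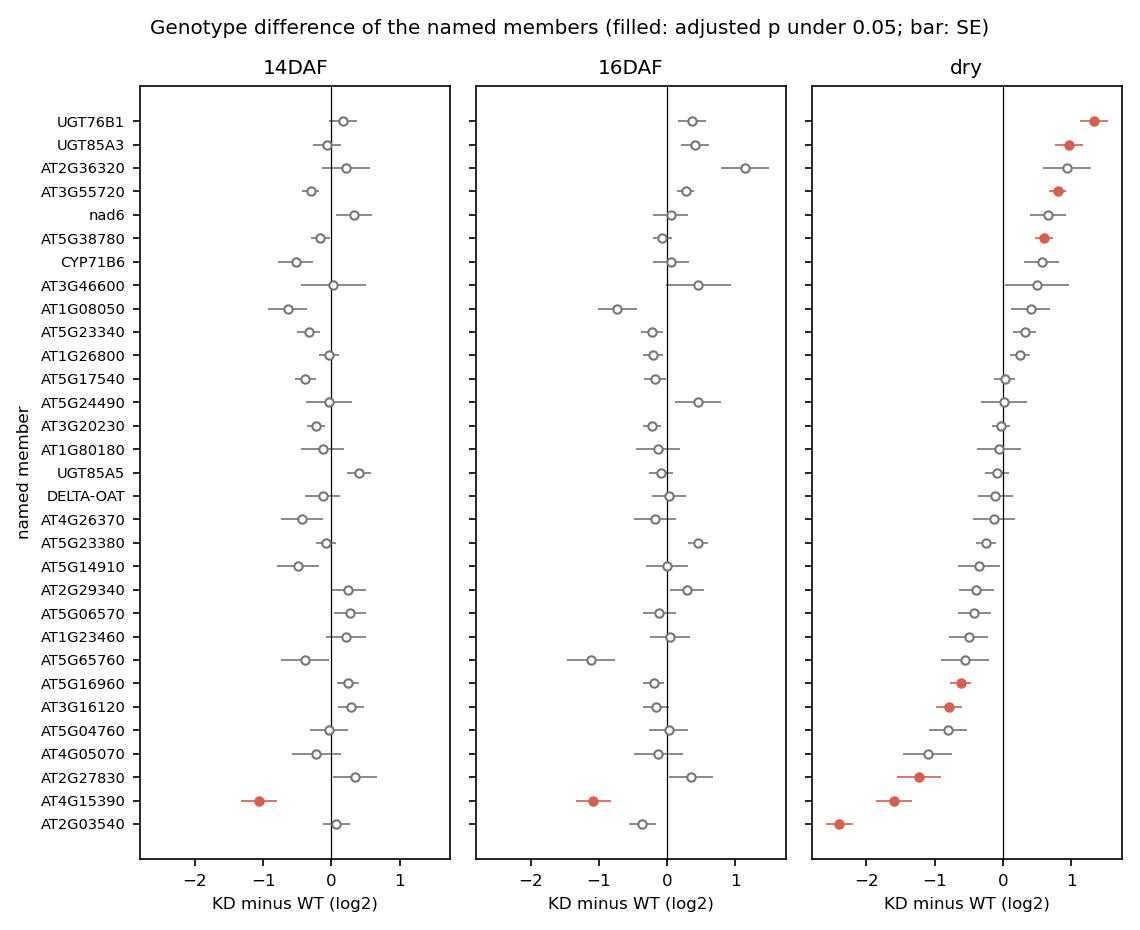
KD minus WT difference (log2, with standard error) of the 31 named members at 14DAF, 16DAF and the dry stage, with differences past the adjusted p of 0.05 filled. The dry seed panel runs from -2.4 for AT2G03540 to 1.33 for UGT76B1.

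Of the 12 members that differed, 9 are named, 4 higher and 5 lower in KD. UGT76B1 was higher in KD by 1.33 ± 0.21 (SE, 2 arrays a group; 2.51-fold), with a limma adjusted p of 0.00373. It kept this call in all 19 alternative settings. AT3G55720 was higher by 0.8 ± 0.13 (adjusted p 0.00419, limma) and also kept its call in all 19. UGT85A3 was 1.96-fold higher, by 0.97 ± 0.2 (adjusted p 0.0164, limma). Its adjusted p was 0.144 without KD dry replicate 2 and 0.137 without WT dry replicate 2. AT5G38780 was higher by 0.6 ± 0.14 (adjusted p 0.0267, limma), a call lost without any one of the 4 dry arrays, with adjusted p between 0.109 and 0.151. So 2 of the 3 UGT members were higher in dry KD seeds, whereas UGT85A5 differed by -0.085 ± 0.18 (adjusted p 0.879).

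The largest difference was that of AT2G03540, which was 5.28-fold lower in KD, by -2.4 ± 0.2 (adjusted p 0.00014, limma), and kept its call in all 19 settings. AT4G15390, the BAHD acyltransferase, was 3.01-fold lower in dry seeds, by -1.59 ± 0.26 (adjusted p 0.00524). Without KD dry replicate 2 the difference was -1.315 with an adjusted p of 0.0606. AT2G27830 was lower by -1.235 ± 0.32 (adjusted p 0.0427), a call lost in 8 of the 19 settings, and without KD dry replicate 1 by -0.83 with an adjusted p of 0.261. AT3G16120 was lower by -0.795 ± 0.19 (adjusted p 0.0299) and lost the call without any one dry array (adjusted p 0.0835 to 0.202). AT5G16960 was lower by -0.62 ± 0.16 (adjusted p 0.0386), a call it lost in 14 of the 19 settings.

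In each of these 9 named cases the dry arrays of the genotypes did not overlap. The test that chose them used these same arrays, so this adds no support. The count of members called in dry seeds fell from 12 to 5 without KD dry replicate 1, 4 without KD dry replicate 2, 5 without WT dry replicate 1 and 4 without WT dry replicate 2. The 22 other named members did not pass the test in dry seeds, AT4G05070 (-1.105 ± 0.36, adjusted p 0.0983), AT2G36320 (0.935 ± 0.35, adjusted p 0.153) and AT5G04760 (-0.805 ± 0.28, adjusted p 0.126) being farthest from 0. DELTA-OAT differed by -0.11 ± 0.25 and AT5G17540 by 0.025 ± 0.16, with the dry arrays overlapping in both. The 3 called members without a gene name differed by 0.75, -1.13 and 0.93.

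**Figure D5:**
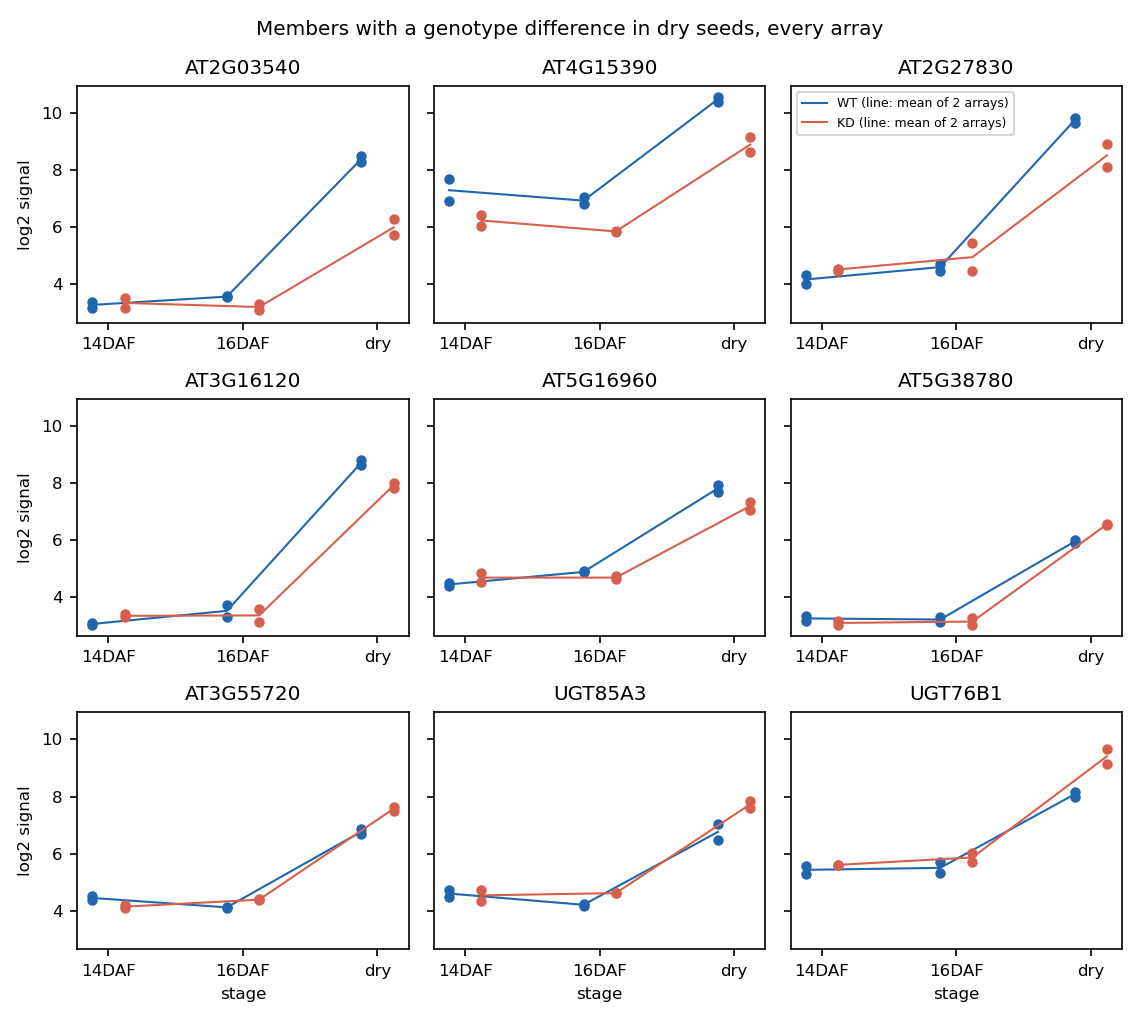
Log2 signal on every array of the 9 named members that differed between KD and WT in dry seeds, by stage, with WT and KD points apart. The 9 were chosen by a test that used these dry points, and the dry points of the genotypes do not overlap in any of them. AT4G15390 is the gene whose KD points also lie below the WT points at 14DAF and 16DAF.

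In developing seeds 22 of the 55 members read below the array median on all 8 arrays, a share not counted over all probe sets. At 14DAF 2 of 55 members differed, both lower in KD, beside 7.27% of all probe sets (3.35% higher and 3.92% lower). Of these calls over all probe sets 46.13% were higher in KD, and 55.24% when each array was centred on its median or 56.75% after quantile normalization. At 16DAF 2 differed, again both lower, beside 11.1% (5.22% higher and 5.88% lower), with 47.05% of calls higher and 55.92% with centred arrays. The named one was AT4G15390 at both stages, by -1.06 ± 0.26 at 14DAF (adjusted p 0.0393, limma) and by -1.08 at 16DAF (adjusted p 0.026). The 14DAF call of AT4G15390 was lost in 9 of the 19 settings and the 16DAF call in 3. No member passed at 14DAF without KD 14DAF replicate 1 or 2 or WT 14DAF replicate 2, and 1 passed without either KD 16DAF or either WT dry array. At 16DAF none passed without KD 16DAF replicate 1 or 2, and 1 without WT 16DAF replicate 2. Whether the genotype difference of any member changed with the stage was not tested, since that comparison is built from the rises that chose the members.

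Averaged over the 3 stages 10 of the 55 differed, 4 higher and 6 lower in KD, beside 20.2% of all probe sets (8.72% higher and 11.5% lower), so the members' share of 18.2% lay near the background. Over all probe sets 43.22% of the averaged calls were higher in KD, and 52.94% with centred arrays. Of the 7 named ones AT4G15390 differed by -1.24 (adjusted p 0.000353), AT2G03540 by -0.90 (0.000455) and AT5G65760 by -0.69 (0.0366). Higher in KD were AT2G36320 by 0.77 (adjusted p 0.0228), UGT76B1 by 0.62 (0.00446), UGT85A3 by 0.44 (0.0231) and AT3G55720 by 0.255 (0.033). AT2G36320 and AT5G65760 passed the test here and at no single stage, and they lost the call in 5 and 8 of 18 settings. UGT85A3 lost its averaged call in 6 and AT3G55720 in 12. The count of 10 was 5 without KD 14DAF replicate 2 or WT dry replicate 1, 4 without KD dry replicate 2, and 6 without WT 14DAF replicate 2 or WT dry replicate 2.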

How the data were processed

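Per the submitters' processing notes the authors made the values with RMA, with Partek also named, and no versions or settings are given in the sources used here. The deposited log2 values, inferred to be log2 from their range, were used without further normalization. RMA aligns the distributions of arrays, so a shift of all transcripts one way would be hidden. Groups came from the sample titles, except for replicate 1 of dry WT seeds, whose title reads WS and whose description gives WT. Every one of the 12 arrays was used. Detection calls were not used, and precision is limited by the number of arrays.

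Of 22810 probe sets, 64 controls were left out. Gene names came from the platform annotation (13513 probe sets with 1 gene, 503 with several) and locus codes from the table of the TAIR10.1 assembly (13436 matched). Where a listed gene had several probe sets, the brightest was used. The limma package 3.58.1 of R 4.3.3 was used to fit 6 group means (lmFit and eBayes, 6 residual and 4.16 prior degrees of freedom) over 22746 probe sets, adjusted by Benjamini-Hochberg, two-sided, at 0.05. The fit was also run on simulated data with independent noise in each array. Deviations shared between arrays were not simulated, so that run does not vouch for the calls here. Tables were made with pandas 2.3.3 under Python 3.11.15, and figures with matplotlib 3.10.9.

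The members and lists were chosen with earlier results of these data known, and the role groups and family lists after the members were seen. Values on every array were given for the 12 named members with the largest mean rise and for every named member that differed between the genotypes. Alternatives were quantile normalization, median centring, a filter on dim probe sets (under 5), an intensity trend, the compared arrays alone, a replicate block, and each array or the 2 conflicting arrays left out. Replicates with the same number did not deviate together throughout (correlations between groups from -0.33 to 0.417), so the number was not used to pair them. The highest value was between WT and KD at 16DAF, and whether arrays of that stage were paired was not settled. Gene order came from the TAIR10.1 table, and sequences were not used here.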

Additional observations from a re-analysis of the deposited data

How the results depend on the processing

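No called difference of a named member changed sign under the alternatives run, but the balance of genotype calls over all probe sets did. The number of members was 55 as reported, 61 with each array centred (38 shared), 47 after quantile normalization (41 shared), 34 without the 2 arrays of conflicting source names (31 shared) and 37 to 73 with 1 array left out. At 14DAF the members that differed numbered 2 as reported, 0 when only the compared arrays were fitted, 1 with the replicate block and 0 to 2 with 1 array left out, and the probe sets that differed numbered 1654, 936 with only the compared arrays and 441 to 2111. At 16DAF the members numbered 2, 4 with dim probe sets left out, 4 with centred arrays, 1 with only the compared arrays, 1 without the conflicting arrays and 0 to 3, and the probe sets 2525, 869 with only the compared arrays and 1019 to 2467. In dry seeds leaving out 1 array gave 4 to 14 members against 12 and 612 to 2255 probe sets against 1800. For the average over stages it gave 4 to 11 members against 10 and 3567 to 4822 probe sets against 4590, and only-the-compared-arrays was not run. Probe sets changed on drying numbered 8476 in WT and 7944 in KD, 6337 to 8392 and 5835 to 8418 with 1 array left out, and 9822 and 9116 with centred arrays. The replicate block gave 1, 2, 11 and 10 members and 1171, 2130, 1436 and 4206 probe sets at 14DAF, at 16DAF, in dry seeds and for the average, and 7937 and 7472 on drying in WT and KD. The share of calls higher in KD was 46.13% at 14DAF, 47.05% at 16DAF and 43.22% for the average, and 55.24%, 55.92% and 52.94% with centred arrays. At 14DAF it was 56.75% after quantile normalization. The causes of these shifts were not tested, and fits with fewer arrays also have fewer degrees of freedom. AT5G16960 in dry seeds missed the threshold at adjusted p 0.0582 after quantile normalization, 0.0646 with the replicate block and 0.0808 with an intensity trend. AT4G15390 at 14DAF gave 0.0607 with the replicate block. For single genes and lists, 630 values were labelled the same. For a gene this means the same direction and side of the threshold, and for a list a count within 1.5 times. Of the rest, 77 gene calls were lost and 8 list counts moved by over 1.5 times. Dim signals in developing seeds limit the folds on drying.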
